A study of Mus musculus with 15 samples.

Results

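A set of 10 genes that are switched on as fat cells form, Adipoq, Plin1, Plin4, Cidec, Cfd, Lep, Retn, Pparg, Fabp4 and Lipe, was followed through bulk RNA-seq of tibialis anterior (TA) muscle and heart from dystrophic mice. They are 10 of the 56980 genes listed, taken by name and not by a cutoff on measured values. Earlier results of these data were known when they were chosen. All 15 mice carried the genotype DBA/2J-mdx, a mutation of the dystrophin gene on a background in which muscular dystrophy runs a severe course, and no mouse with intact dystrophin was among them. The mice received either vehicle or the senolytic pair dasatinib and quercetin (D + Q), drugs given together to remove senescent cells, and the comparison asks how each tissue differed after that treatment. The 4 vehicle-treated and 4 D + Q-treated TAs came from mice whose treatment began at 3 months of age, 2 times per week for 2 months, and ended with collection at 5 months of age. The 4 vehicle-treated and 3 D + Q-treated hearts came from older mice, treated from 12 months of age, 2 times per week for 4 months, and collected at 16 months of age, so tissue, age and length of treatment cannot be told apart. By the labels, the D + Q-treated TAs were all male (4 of 4), vehicle TA replicates 2 and 4 were female and replicates 1 and 3 male, vehicle heart replicates 2 and 3 were female and replicates 1 and 4 male, and D + Q-treated heart replicates 1 and 2 were female and replicate 3 male.

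White fat cells store triglyceride in a single large droplet, coat that droplet with perilipins and CIDE proteins, release fatty acids from it through lipases, and secrete hormones such as adiponectin, adipsin, leptin and resistin. The nuclear receptor PPARγ switches on most of these genes. In dystrophic muscle, fat cells arise from the fibro/adipogenic progenitors that lie between the fibres, and in the heart they lie mainly under the epicardium. Some of the genes are not restricted to fat cells: the endothelium of capillaries makes the fatty acid carrier Fabp4, and muscle fibres and heart muscle cells make Plin4 and the lipase Lipe.

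Expression was given as TPM, a value divided by transcript length and scaled to a total of 1000000 in each library, so levels can be set side by side between genes, while the depth behind each value is unknown. The labelled tissues carried their own muscle genes: the fast myosin gene Myh4 ranged from 4190 to 5855 TPM in TA and from 0 to 10.2 TPM in heart, and the cardiac myosin gene Myh6 ranged from 4002 to 5741 TPM in heart and from 0.123 to 1.89 TPM in TA. Xist, which is transcribed from the inactive X chromosome of females, ranged from 63.2 to 73.2 TPM in the labelled females among the vehicle mice and from 0.0109 to 0.415 TPM in the labelled males of those groups and of D + Q-treated TA. It was 59.5 and 53.2 TPM in D + Q-treated heart replicates 1 and 2, labelled female. Heart replicate 3 of the D + Q group is labelled male, but its Xist level was 47.2 TPM and it held no more than 0.0279 TPM of each of the Y-linked genes Ddx3y, Eif2s3y, Uty and Kdm5d, so its label and its RNA differed, and results that rest on it are given with and without it or with sex read from Xist. The hearts also differed in RNA of atrial muscle: the atrial light chain gene Myl7 was 94.1, 730, 541 and 283 TPM across vehicle replicates 1 to 4 and 3.99, 4.54 and 3.46 TPM in D + Q-treated replicates 1 to 3. How much atrial tissue each heart held is not given in the labels. Dmd RNA ranged from 26.8 to 54.3 TPM and does not check the genotype, because the mutation leaves the transcript in place.

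The stretch just before the transcription start is shown for 3 of the genes: Cfd and Retn, with the widest gap between female and male mice below, and Adipoq, with which the other genes are correlated. Each is the 250 bases that end before the start of the GENCODE canonical transcript, read from GRCm39 in the direction of transcription, and lies at chr10:79726418-79726667 on the plus strand, chr8:3705515-3705764 on the plus strand and chr16:22965036-22965285 on the plus strand. A match to one of the motifs named below would stand in capitals, and these windows hold none.
Cfd: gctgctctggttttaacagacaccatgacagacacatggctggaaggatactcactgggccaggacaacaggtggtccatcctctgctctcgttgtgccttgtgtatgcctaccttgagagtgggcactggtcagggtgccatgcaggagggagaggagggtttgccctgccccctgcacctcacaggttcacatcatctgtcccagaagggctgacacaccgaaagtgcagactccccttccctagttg
Retn: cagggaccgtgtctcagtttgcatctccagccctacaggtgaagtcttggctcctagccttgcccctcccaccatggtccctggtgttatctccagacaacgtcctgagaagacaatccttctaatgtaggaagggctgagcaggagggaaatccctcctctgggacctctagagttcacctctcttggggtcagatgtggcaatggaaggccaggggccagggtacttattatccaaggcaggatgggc
Adipoq: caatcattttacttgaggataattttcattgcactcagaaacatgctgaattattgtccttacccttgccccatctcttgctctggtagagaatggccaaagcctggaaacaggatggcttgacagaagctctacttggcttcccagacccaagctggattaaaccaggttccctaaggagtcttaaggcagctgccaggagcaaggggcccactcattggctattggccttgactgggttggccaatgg

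Motifs were searched on both strands of the same window in all 10 genes and in 21631 protein-coding genes. The element AGGTCANAGGTCA, an idealised site for PPARγ with its partner RXR, was in 0 of the 10 windows and in 0.037% of all windows. The C/EBP motif TTGCNNAA was in 1 of 10, in Lep from position -51, against 9.37%, and the TATA box TATAAA was in 0 of 10 against 12% of all windows. That the windows of Cfd, Retn and Adipoq hold none of these letters says nothing of sites elsewhere in those genes.

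The fat cell hormones were present at low levels that differed widely between mice, with gene positions given here and below on GRCm39 as GENCODE M39 annotates them. Adipoq (chr16:22964106-22976810), which encodes adiponectin, was 0.357, 1.32, 0.455 and 2.01 TPM in vehicle-treated TA replicates 1 to 4 and 0.383, 0.350, 2.44 and 0.264 TPM in D + Q-treated TA replicates 1 to 4. The female vehicle mice, replicates 2 and 4, and the male D + Q-treated replicate 3 stood above the other 5 TAs, and the treatment groups overlapped. In heart, Adipoq was 0.617, 3.29, 1.38 and 0.513 TPM across vehicle replicates 1 to 4 and 2.68, 1.67 and 0.668 TPM in D + Q-treated replicates 1 to 3. The 4 hearts labelled female lay above the 3 labelled male, and the treatment groups overlapped again.

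Cfd (chr10:79726668-79728496) encodes adipsin, the complement factor D that fat cells secrete, and was the most abundant of the hormone genes. In TA it was 3.29, 21.7, 3.45 and 14.9 TPM across vehicle replicates 1 to 4 and 3.57, 1.66, 2.74 and 4.66 TPM in D + Q-treated replicates 1 to 4. In heart it was 4.30, 19.2, 12.5 and 3.57 TPM across vehicle replicates 1 to 4 and 10.3, 8.31 and 6.07 TPM in D + Q-treated replicates 1 to 3. The female vehicle mice stood apart in both tissues, and D + Q-treated TA replicate 3, which was high in Adipoq, was not high in Cfd. Across the 8 TA mice, the 6 males spanned 1.66 to 4.66 TPM and the 2 females 14.9 to 21.7 TPM, with no overlap.

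Retn (chr8:3705324-3710689), which encodes resistin, was 0.145, 2.96, 0.130 and 1.29 TPM in vehicle-treated TA replicates 1 to 4 and 0.267, 0.175, 0.190 and 0.214 TPM in D + Q-treated TA replicates 1 to 4. Hearts had 0.156, 0.895, 1.24 and 0.0930 TPM across vehicle replicates 1 to 4 and 0.861, 0.658 and 0.606 TPM in D + Q-treated replicates 1 to 3. As with Cfd, the 4 female vehicle mice lay above the 4 male vehicle mice, and all 3 D + Q-treated hearts, each with Xist, lay above the 2 male vehicle hearts. Lep (chr6:29060216-29073877), the leptin gene, was at most 0.142 TPM in any mouse and was listed at 0 in 2 hearts, vehicle replicate 3 and D + Q-treated replicate 2. That is below the 0.5 TPM in at least 3 mice that was required of a tested gene, so Lep was tested in no comparison, and Retn was left out in TA by the same filter. Without the filter, Lep was at 0.00447 (SE 0.08, adjusted p = 0.996) between D + Q and vehicle in TA and at -0.12 (SE 0.08, adjusted p = 0.649) in heart, on the log2(TPM + 0.5) scale. Retn in TA was at -0.72 (SE 0.56, adjusted p = 0.968) without it.

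The genes for proteins of the fat droplet fell into 2 kinds by level. Plin1 (chr7:79369966-79382718) encodes perilipin 1, the coat protein of the fat cell droplet, and was 0.617, 1.52, 0.477 and 1.90 TPM in vehicle-treated TA replicates 1 to 4 and 0.341, 0.112, 0.513 and 0.313 TPM in D + Q-treated TA replicates 1 to 4. In heart it was 0.831, 2.94, 1.59 and 0.529 TPM across vehicle replicates 1 to 4 and 1.13, 0.791 and 0.416 TPM in D + Q-treated replicates 1 to 3. Its highest values were again those of the female vehicle mice, and in each tissue the treatment groups overlapped. Cidec (chr6:113400691-113412721), which fuses small droplets into the large one, was 0.411, 1.30, 0.476 and 1.47 TPM in vehicle-treated TA replicates 1 to 4 and 0.568, 0.196, 0.596 and 0.263 TPM in D + Q-treated TA replicates 1 to 4. In heart it was 0.476, 3.33, 2.03 and 0.433 TPM across vehicle replicates 1 to 4 and 1.45, 1.02 and 0.334 TPM in D + Q-treated replicates 1 to 3. D + Q-treated heart replicate 3, whose label and Xist level differ, had the lowest Plin1 and Cidec of the 7 hearts, while its Cfd and Retn lay above both male vehicle hearts.

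Plin4 (chr17:56406617-56416931), a perilipin that muscle also makes, was far higher. It was 54.7, 86.3, 53.5 and 67.3 TPM in vehicle-treated TA replicates 1 to 4 and 71.3, 60.8, 76.8 and 96.2 TPM in D + Q-treated TA replicates 1 to 4. In heart it was 44.3, 45.1, 56.7 and 42.7 TPM across vehicle replicates 1 to 4 and 64.9, 64.6 and 55.5 TPM in D + Q-treated replicates 1 to 3. In heart the groups overlapped by a single pair, vehicle replicate 3 lying above D + Q-treated replicate 3.

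The remaining genes are the regulator, the fatty acid carrier and the lipase. Pparg (chr6:115337675-115468268) ranged from 3.04 to 5.28 TPM in TA and from 5.71 to 9.89 TPM in heart, with no overlap between tissues. Fabp4 (chr3:10268785-10273737) was 152, 158, 130 and 145 TPM in vehicle-treated TA replicates 1 to 4, 123, 125, 124 and 139 TPM in D + Q-treated TA replicates 1 to 4, 253, 261, 240 and 266 TPM in vehicle-treated heart replicates 1 to 4 and 255, 304 and 257 TPM in D + Q-treated heart replicates 1 to 3. Every heart lay above every TA, and within a group the coefficient of variation of Fabp4 was 4.38% to 10.2%, against 60.1% to 123% for Adipoq. Lipe (chr7:25078880-25098135), which encodes hormone-sensitive lipase, ranged from 6.63 to 12.3 TPM in TA and from 11.3 to 18.1 TPM in heart. In 7 of the 10 genes an annotated gene on the opposite strand overlaps the locus, the protein-coding Hdgfl2 at Plin4 over 4193 bases and non-coding genes or a pseudogene at Adipoq, Cidec, Retn, Pparg, Fabp4 and Lipe. These overlaps are of whole gene spans, introns included, and overlap of exons was not examined. Whether the quantification used strand is not given in the sources used here. How far reads of the 2 genes were kept apart there is therefore unknown.

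**Figure D1:**
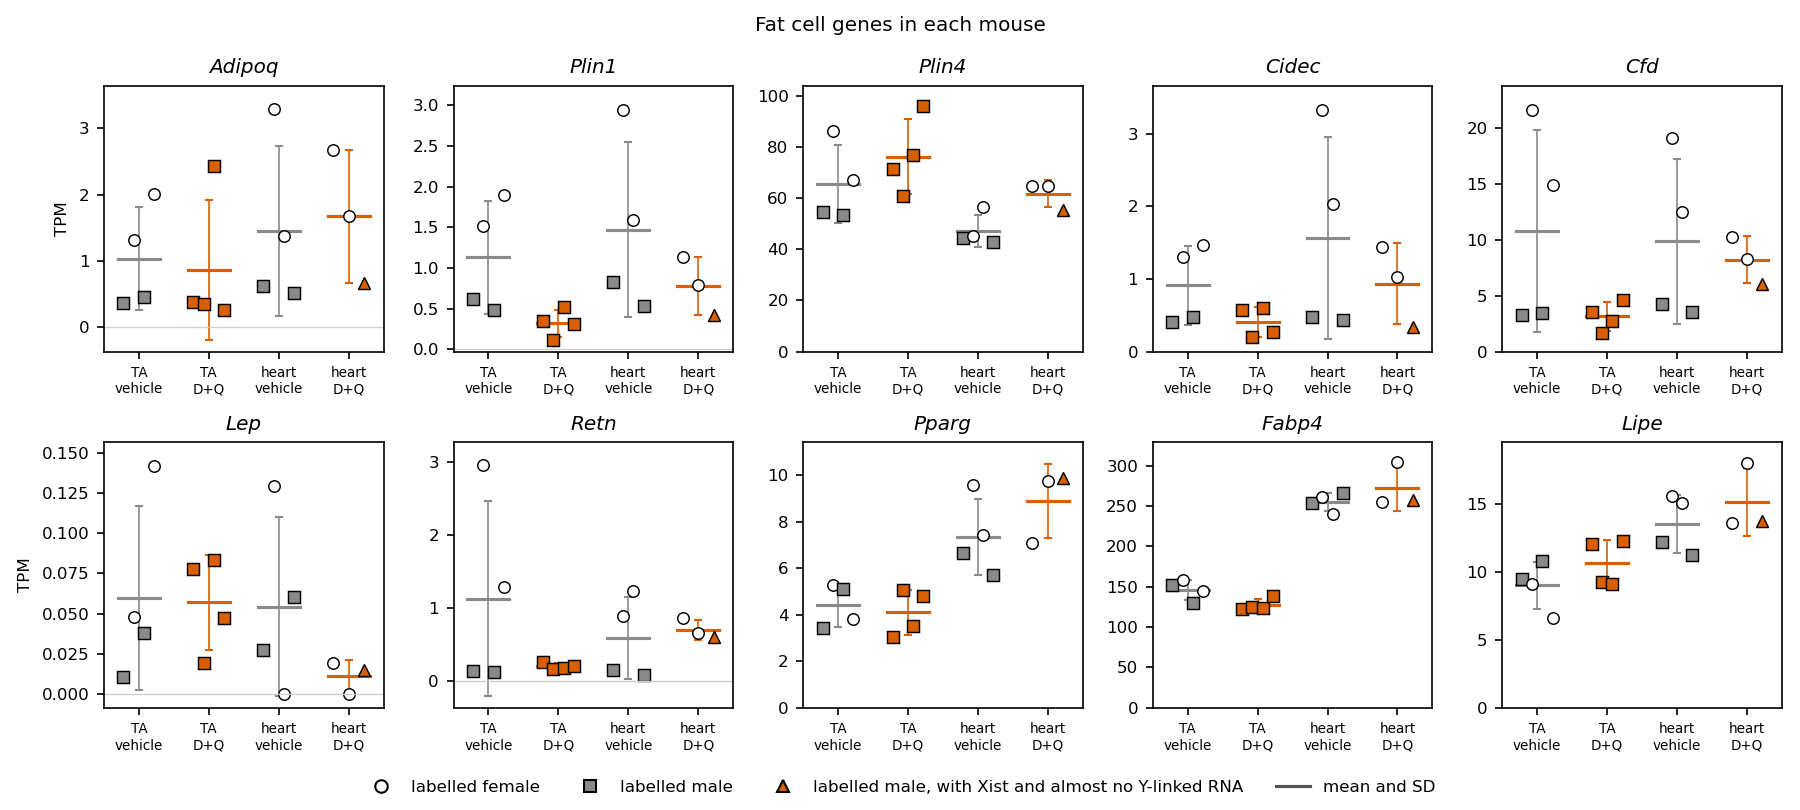
TPM (vertical axes, each with its own scale) of the 10 fat cell genes in each of the 15 mice by group (horizontal axes), with a line for the mean and a bar for the SD between mice. Open circles are labelled females, squares labelled males (grey for vehicle, orange for D + Q), and the triangle is D + Q-treated heart replicate 3, labelled male but with 47.2 TPM of Xist. In Cfd the 4 female vehicle mice (12.5 to 21.7 TPM) lie above the 4 male vehicle mice (3.29 to 4.30 TPM), while Fabp4 separates heart (240 to 304 TPM) from TA (123 to 158 TPM).

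In TA, no fat cell gene passed the test between D + Q-treated and vehicle-treated mice. Of the 8 members tested, 0 were called, where called means a Benjamini-Hochberg adjusted p under 0.05 over all genes and a log2 difference above 0.5 in size, and 0% of all 16298 genes tested were called by limma with 1 surrogate variable in the model. At an unadjusted p under 0.05 there were 488 genes in all and 1 of the 8 members. That was Plin1, with a log2 difference in TPM + 0.5 of -0.81 (SE 0.32, adjusted p = 0.999), which is 0.569-fold of vehicle. The largest difference among the members was that of Cfd, at -1.22 (SE 0.58, adjusted p = 0.999), and that of Adipoq was -0.02 (SE 0.39). Of the 8 members 2 were positive and 6 negative, with a median of -0.13 against -0.07 over all genes tested. In bulk tissue, fewer fat cells and less RNA per fat cell cannot be told apart.

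Sex moved with treatment in TA, since the D + Q-treated mice were all male and 2 of the 4 vehicle mice were female. With labelled sex in place of the surrogate variable, the difference of Cfd was -0.15 (SE 0.33), that of Cidec -0.09 (SE 0.27) against -0.53 (SE 0.32), that of Plin1 -0.37 (SE 0.26) and that of Adipoq 0.33 (SE 0.51). Plin4, at 0.25 (SE 0.19), was 0.47 (SE 0.19) in that model. None of these was called in either model.

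In heart, no fat cell gene was called between D + Q-treated and vehicle-treated mice either. Of the 9 members tested, 0 were called, against 0.316% of all 16132 genes tested, with labelled sex in the model. At an unadjusted p under 0.05 there were 2846 genes in all and 3 members, with Plin4 at 0.35 (SE 0.08, adjusted p = 0.113), Plin1 at -0.67 (SE 0.24, adjusted p = 0.213) and Cidec at -0.59 (SE 0.22, adjusted p = 0.239). Cfd was at -0.20 (SE 0.28), Adipoq at 0.04 (SE 0.27), Retn at 0.14 (SE 0.27) and Fabp4 at 0.09 (SE 0.08). The median over the members was 0.09, against -0.00248 over all genes tested.

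The label of D + Q-treated heart replicate 3 moved these values. With sex read from Xist in the model, in which each of the 3 D + Q-treated hearts counts as female, Cidec was -1.20 (SE 0.37, adjusted p = 0.251), Plin1 -1.11 (SE 0.32, adjusted p = 0.236), Cfd -0.91 (SE 0.24, adjusted p = 0.214) and Adipoq -0.41 (SE 0.45, adjusted p = 0.737). Again none was called. The vehicle females had the most atrial RNA of the 7 hearts by Myl7, and the D + Q-treated hearts the least. Epicardial genes were also lower in sum: the summed TPM of 6 epicardial and mesothelial genes was 19.1 to 27.2 in vehicle hearts and 13.2 to 16.4 in D + Q-treated hearts, all 6 genes being negative, with 0 called and 6 at an unadjusted p under 0.05 by limma, against 17.6% of all genes tested. The part of atrial and epicardial tissue in the fat cell genes was not tested.

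Whether treatment acted differently in the 2 tissues was asked with an interaction term over all 15 mice. It was called for 0 of the 9 members tested and for 0.0616% of all 17868 genes tested by limma. At an unadjusted p under 0.05 there were 754 genes in all and 0 members. Estimates ran from -0.28 (SE 0.31) for Pparg to 0.61 (SE 0.33) for Cidec with labelled sex in the model. With sex read from Xist, Cidec was 1.12 (SE 0.47) and Cfd 0.75 (SE 0.45), against -0.18 (SE 0.49) for Cfd with labelled sex. With no covariate Cidec was -0.23 (SE 0.64) and Cfd -1.30 (SE 0.86). Pparg, Fabp4 and Lipe kept their signs in these models, and no member was called in them.

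Among vehicle-treated mice, Cfd was called higher in females than in males. Cfd, Retn, Cidec, Adipoq and Plin1, 5 genes typical of fat cells, stood higher in every female than in every male. These 5 were grouped after their values had been seen, and the share of all genes that separate the sexes this fully was not counted. The count of 5 therefore describes these mice and has no background to be set against. Lep, also a fat cell hormone, overlapped between the sexes, at 0 to 0.142 TPM in females and 0.0106 to 0.0605 TPM in males. This comparison was added after the values had been seen, with tissue and labelled sex in the model and the 8 vehicle mice. Cfd was 17.1 ± 4.11 TPM in females and 3.65 ± 0.449 TPM in males (SD, n = 4 each), a log2 difference of 2.06 (SE 0.18, adjusted p = 0.00288), or 4.16-fold. It was the only one of the 9 members tested that was called higher, against 0.0237% of all 16893 genes tested. The 4 genes called higher were Xist, Cfd, the small nuclear RNA Gm23458 and Kdm6a, an X-linked gene that escapes X inactivation, and the 6 called lower were the Y-linked Ddx3y, Eif2s3y, Uty and Kdm5d with Egr2 and C7.

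The other 4 of these genes had the same direction without passing the correction over all genes. Retn was 1.60 ± 0.925 TPM in females and 0.131 ± 0.0276 TPM in males (SD, n = 4 each), a difference of 1.64 (SE 0.24, adjusted p = 0.0864). Cidec was 2.03 ± 0.919 and 0.449 ± 0.0326 TPM, a difference of 1.35 (SE 0.20, adjusted p = 0.103). Adipoq was at 1.28 (SE 0.23, adjusted p = 0.268) and Plin1 at 1.14 (SE 0.20, adjusted p = 0.235). The male values of Retn lay under the 0.5 TPM added before the logarithm, so its difference is understated on this scale.

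Plin4 was at 0.35 (SE 0.13, adjusted p = 0.558), Pparg at 0.26 (SE 0.18), Fabp4 at 0.03 (SE 0.10) and Lipe at 0.01 (SE 0.18). The 95% confidence interval of the female to male difference was -0.20 to 0.25 for Fabp4 and 1.64 to 2.47 for Cfd. All 9 members were positive, 6 of them at an unadjusted p under 0.05, with a median of 1.14 against 0.08 over all genes tested.

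Within a tissue, each fit held 2 females and 2 males. The difference of Cfd by limma was 2.26 (SE 0.35, adjusted p = 5.81e-06) in the 4 vehicle TAs. It was 1.86 (SE 0.22, adjusted p = 0.316) in the 4 vehicle hearts, where the call was lost. Because limma shares its estimate of the spread between genes, these p-values do not rest on the 4 mice alone. The fit on the TAs alone called 224 genes, 1.47% of those tested. With all 15 mice and labelled sex in the model it was 1.68 (SE 0.27, adjusted p = 0.0800), and with all 15 mice and sex read from Xist 2.06 (SE 0.25, adjusted p = 0.00250). The D + Q-treated groups held a single sex each by Xist and gave no within-group comparison. Genes of other cell types are given beside this, where 7.71% of all genes tested had an unadjusted p under 0.05. In TA the tendon gene Tnmd was 40.6 and 45.3 TPM in the female vehicle replicates 2 and 4 and 8.22 to 30.2 TPM in the males, and the 5 tendon genes were all positive over the vehicle mice, with 0 called and 3 at an unadjusted p under 0.05 by limma. In the vehicle hearts Myl7 was 730 and 541 TPM in the females and 94.1 and 283 TPM in the males. The D + Q-treated hearts, with at most 4.54 TPM of Myl7, had 6.07 to 10.3 TPM of Cfd. That was above the 3.57 to 4.30 TPM of the male vehicle hearts and below the 19.2 and 12.5 TPM of the female ones. Fibro/adipogenic progenitor genes were positive in 7 of 8 tested, with a median of 0.36, 0 called and 4 at an unadjusted p under 0.05 by limma. The part of these cell types in the difference was not tested.

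**Figure D2:**
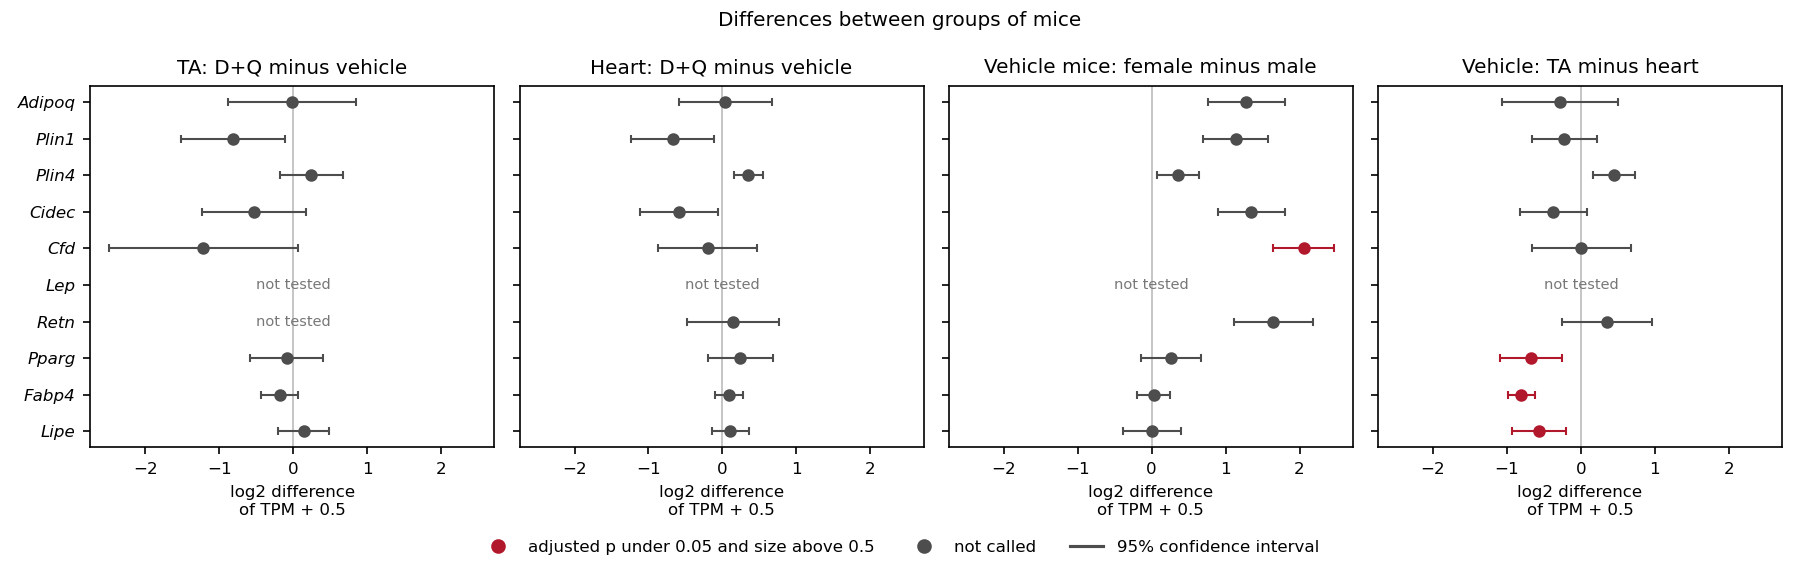
Log2 difference in TPM + 0.5 (horizontal axes) with its 95% confidence interval for each fat cell gene (vertical axis) in 4 comparisons, where red marks a called gene. Neither treatment panel holds a red point, Cfd at 2.06 is the red point between female and male vehicle mice, and Fabp4, Pparg and Lipe are red and below 0 between TA and heart.

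Between tissues, Fabp4, Pparg and Lipe were lower in TA than in heart in vehicle mice, and Fabp4 and Pparg in D + Q-treated mice as well. In vehicle mice 3 of the 9 members tested were called lower in TA than in heart, where 14.2% of all 17868 genes tested were, and 0 were called higher, where 22.5% were. Fabp4 had a difference of -0.80 (SE 0.09, adjusted p = 3.23e-06), or 0.573-fold, Pparg one of -0.68 (SE 0.20, adjusted p = 0.0127) and Lipe one of -0.57 (SE 0.17, adjusted p = 0.0135). These stand against a median of 0.16 over all genes, which median-of-ratios scaling moved to -0.00032 and under which the same 3 members were called and were lower, at -0.99, -0.85 and -0.75. Without vehicle TA replicate 4 Lipe was -0.41 (adjusted p = 0.0370) and without vehicle heart replicate 2 -0.50 (adjusted p = 0.0468), both under the minimum size. Plin4 was at 0.45 (SE 0.13, adjusted p = 0.0140), also under the minimum size, and at 0.26 (adjusted p = 0.124) after that scaling.

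Adipoq, at -0.28 (SE 0.37, 95% confidence interval -1.06 to 0.51), Plin1, at -0.22 (SE 0.21), Cidec, at -0.37 (SE 0.21), Retn, at 0.35 (SE 0.28), and Cfd, at 0.01 (SE 0.31, interval -0.66 to 0.67), were not called between the vehicle tissues. In D + Q-treated mice 2 members were called lower in TA, Fabp4 at -1.05 (SE 0.10, adjusted p = 2.29e-06) and Pparg at -0.95 (SE 0.24, adjusted p = 0.00652), against 13.3% of all genes tested, and 1 was called higher, Plin4 at 0.50 (SE 0.16, adjusted p = 0.0266), against 21.4%. Plin4 was just past the minimum size and was no longer called under median-of-ratios scaling, at 0.31 (adjusted p = 0.146), with no covariate, at 0.29 (SE 0.17), or with a pseudocount of 1 TPM, at 0.497, which is under the minimum size. It was also lost without any 1 of D + Q-treated TA replicates 3 and 4, vehicle TA replicates 1, 2 and 3, vehicle heart replicate 3 and the 3 D + Q-treated hearts, at 0.38 to 0.57. Pparg was no longer called without D + Q-treated heart replicate 3, at -0.70 (adjusted p = 0.116). With median-of-ratios scaling Lipe was called lower as well, at -0.64 (adjusted p = 0.00771). With sex read from Xist in the model, 4 members were called, 2 higher and 2 lower in TA, of which Retn was gained. It was at 0.88 (SE 0.30, adjusted p = 0.0393), against 0.09 (SE 0.35, adjusted p = 0.862) with labelled sex. All D + Q-treated TAs were male and all D + Q-treated hearts had Xist, so sex and tissue are parted there only by the label of that heart and by the vehicle mice.

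Genes of capillary endothelium, which also makes Fabp4, are given beside this. Of 10 endothelial genes 5 were called lower in vehicle TA than in vehicle heart, against 14.2% of all genes, and 0 higher, against 22.5%, and all 10 were negative. Lpl, the lipase that frees fatty acids from circulating lipoproteins, was at -2.55 (SE 0.14, adjusted p = 2.20e-09), and Cd36, a fatty acid transporter, at -1.65 (SE 0.12, adjusted p = 4.58e-08). The summed TPM of the 10 genes was 408 to 623 in TA and 1549 to 2063 in heart. Lpl and Cd36 weighed most in that sum, at 809 and 533 TPM on average in vehicle heart and 139 and 171 TPM in vehicle TA. Cdh5 was 68.7 TPM in vehicle heart and 67.7 TPM in vehicle TA, and Pecam1 47.1 and 43.1 TPM. Kdr was 35.1 and 18.8 TPM, and Emcn 29.9 and 17.5 TPM. Both Lpl and Cd36 are also made by muscle cells, and the part of endothelium in the difference of Fabp4 was not tested.

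Whether the fat cell genes vary together between mice was asked within each tissue, over 8 TAs and 7 hearts, with log2(TPM + 0.5). Over the 45 pairs of members the median Pearson r was 0.28 in TA and 0.42 in heart, while the median r between a member and every other tested gene was 0.09 in TA and 0.28 in heart. In each tissue 6 pairs had an r of at least 0.8. The share of all gene pairs with such an r was not counted. Adipoq had it with 0.559% of all genes in TA and 7.41% in heart. In TA the 6 pairs lay among Plin1, Cidec, Cfd and Retn, the highest being Plin1 with Cidec at 0.951, Cfd with Retn at 0.942 and Plin1 with Cfd at 0.913. Adipoq was in none of them, with at most 0.743, with Cidec. In heart the 6 pairs lay among Adipoq, Plin1, Cidec, Cfd and Retn. The highest were Plin1 with Cidec at 0.957, Cidec with Cfd at 0.947 and Adipoq with Cfd at 0.902. The mice shared treatment groups and sexes, so these r are not free of the differences given above.

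The remaining genes followed this set in one tissue or in neither. Fabp4 had an r of 0.138 with Adipoq in TA and of 0.0938 in heart, but of 0.742 with Cfd in TA against -0.117 in heart. Lipe had an r of -0.717 with Adipoq in TA, where the female vehicle replicates 4 and 2 had the lowest Lipe of the 8 mice, and of 0.630 in heart.

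**Figure D3:**
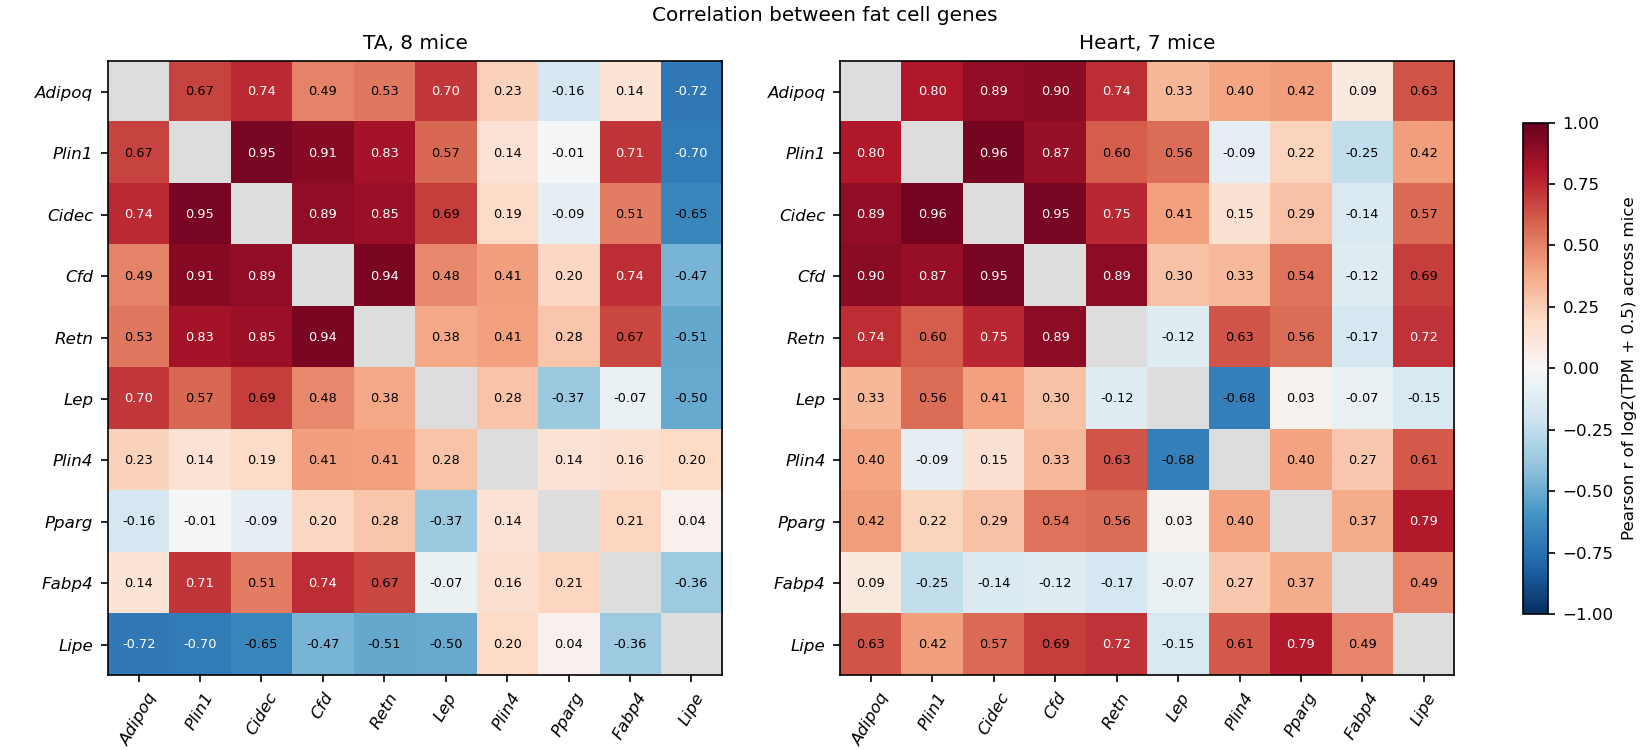
Pearson r of log2(TPM + 0.5) across mice for each pair of fat cell genes in TA (left) and heart (right), with red for positive and blue for negative r and the gene order chosen to place the genes typical of fat cells first. The block of Adipoq, Plin1, Cidec, Cfd and Retn is red in both tissues, from 0.495 to 0.951 in TA and from 0.602 to 0.957 in heart, whereas the row of Lipe is negative with all 5 of these genes in TA and positive with them in heart.

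Adipoq was tested against each other member in each tissue, 18 relations in all, by exact permutation tests that were two-sided, with Benjamini-Hochberg adjustment over the 18. None passed after adjustment. In heart, Cfd had an r of 0.902 (exact permutation p = 0.00913, adjusted 0.1) with a Spearman rho of 0.893 (p = 0.0123, adjusted 0.111, exact permutation), and r was 0.776 without the 2 mice farthest in Adipoq. Cidec had an r of 0.886 in heart (exact permutation p = 0.0111, adjusted 0.1) with a rho of 0.786 (p = 0.0480, adjusted 0.148, exact permutation), and r was 0.769 without those mice. In TA, Cidec had an r of 0.743 (exact permutation p = 0.0375, adjusted 0.134) with a rho of 0.881 (p = 0.00724, adjusted 0.111, exact permutation), and r was 0.926 without the 2 farthest mice, D + Q-treated replicate 3 and vehicle replicate 4.

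The relations were also computed within a sex. Within the 6 male TAs, Adipoq had an r of 0.580 with Cidec (exact permutation p = 0.190), 0.364 with Plin1 (exact permutation p = 0.390), -0.208 with Cfd (exact permutation p = 0.517) and -0.0143 with Retn (exact permutation p = 0.963), and the median r over the 45 pairs was 0.0292. In heart, 5 mice had Xist and 2 did not, under the 6 mice taken as the least for a correlation, so none was computed within a sex. Relative to the mean of its own treatment group, Adipoq had an r of 0.974 with Plin1, 0.966 with Cidec and 0.914 with Cfd in heart. In TA those r were 0.792, 0.788 and 0.480. Such deviations keep the difference between the sexes within the vehicle groups.

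**Figure D4:**
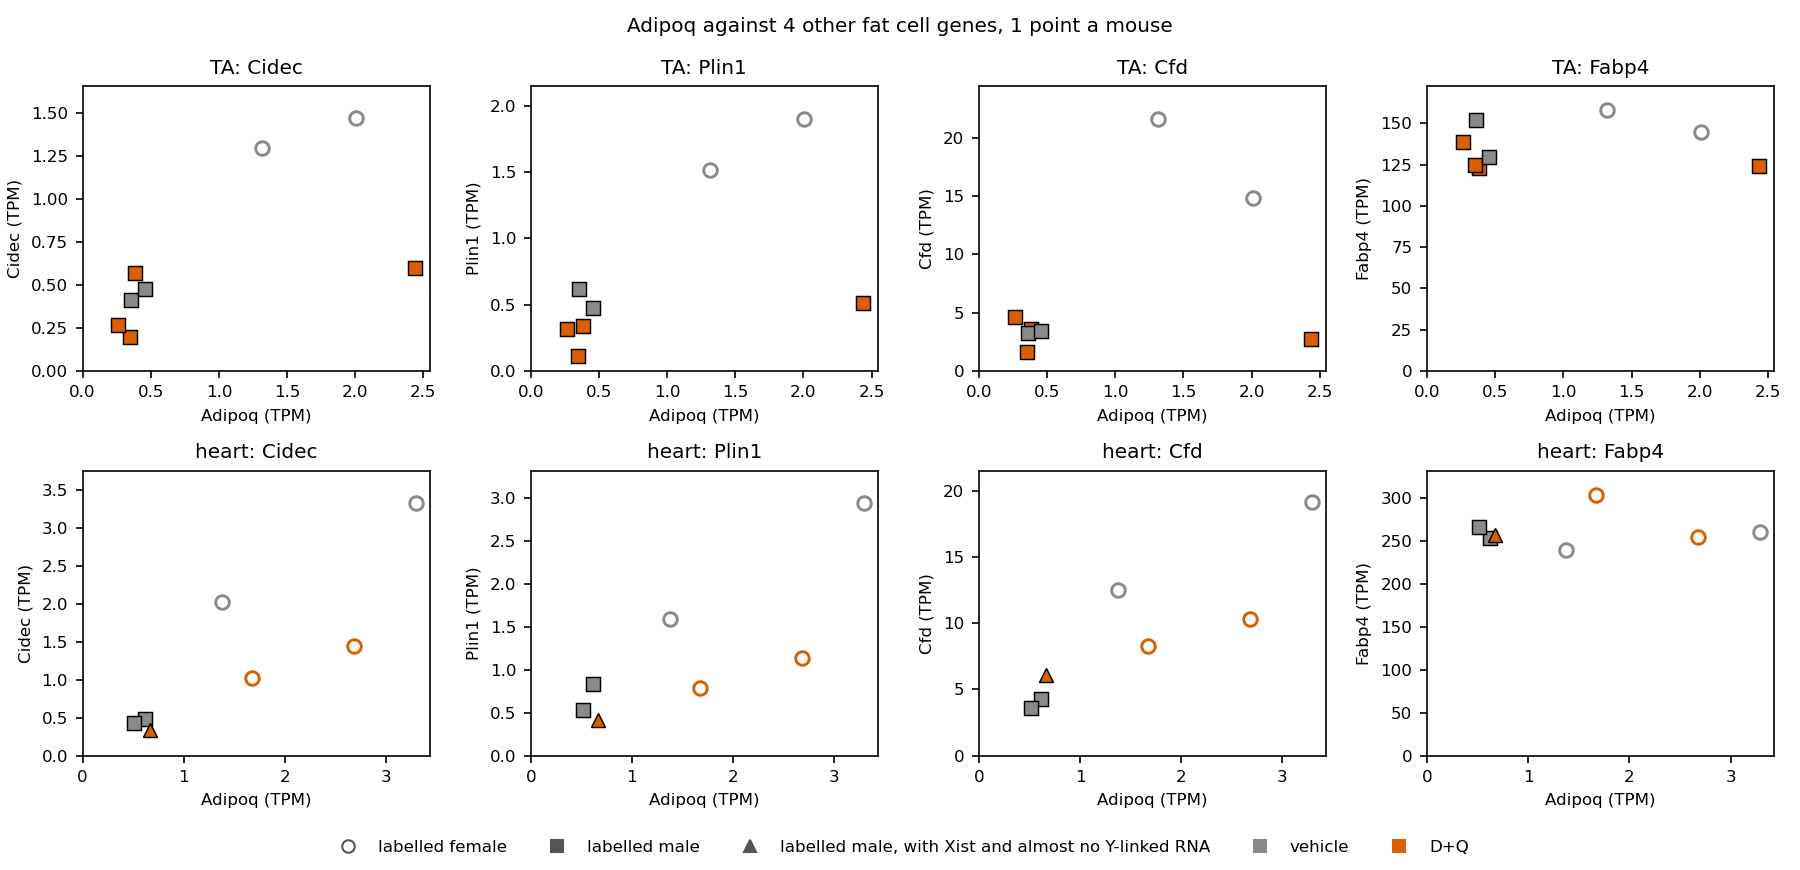
Adipoq (horizontal axes, TPM) against Cidec, Plin1, Cfd and Fabp4 (vertical axes, TPM) in TA (top) and heart (bottom), 1 point a mouse, grey for vehicle and orange for D + Q, with open circles for labelled females, squares for labelled males and a triangle for D + Q-treated heart replicate 3. In TA the female mice lie apart in Cidec, Plin1 and Cfd and the male D + Q-treated replicate 3 is high only in Adipoq, at 2.44 TPM, and in heart Cidec, Plin1 and Cfd are highest in the mouse with 3.29 TPM of Adipoq, while Fabp4 does not follow Adipoq.

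The genes outside the set whose levels were most like those of Adipoq differed between the tissues. In TA these were Ccdc3 (r = 0.982), the small nucleolar RNA Gm25617 (0.960), Chad, a cartilage and tendon matrix protein (0.954), Chrdl1 (0.945) and Prph, a neuronal filament protein (0.937), over 8 mice. Ccdc3, a secreted protein made by fat cells and endothelium, was 3.93, 6.10, 4.16 and 9.40 TPM across vehicle replicates 1 to 4 and 4.14, 3.43, 8.86 and 3.16 TPM in D + Q-treated replicates 1 to 4. Chad was 4.72, 23.9, 14.6 and 117 TPM across vehicle replicates 1 to 4 and 11.5, 7.24, 90.1 and 5.23 TPM in D + Q-treated replicates 1 to 4. Both were high in D + Q-treated replicate 3 and vehicle replicate 4, the mice with the most Adipoq. Gm25617 was listed at 0 in 5 of the 8 TAs. In heart the closest were Atrx (0.994), the pseudogene Gm6483 (0.987), Hps3 (0.981), a gene with no symbol (0.978) and Dlc1 (0.977), over 7 mice. In heart 7.41% of all genes had an r of at least 0.8 with Adipoq, against 0.559% in TA.

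Among other genes of fat cells, limma called 0 between D + Q and vehicle in either tissue, and at an unadjusted p under 0.05 there were 1 of 41 different genes tested in TA and 7 of 41 in heart, where 2.99% and 17.6% of all genes tested had such a p. They came from 6 lists: fat cell transcription factors, droplet and lipolysis genes, fat synthesis and glycerol genes, other white fat cell genes, brown fat genes and receptors of fat hormones. In heart 10 of the 11 droplet and lipolysis genes tested were positive with 0 called (median 0.12 against -0.00248 over all genes), and all 5 tested of the 10 other white fat cell genes were negative with 0 called (median -0.41). The most abundant droplet and lipolysis genes were Pnpla2, the first lipase of triglyceride breakdown, at 138 TPM on average over the 15 mice, Fitm1, which helps droplets to form, at 90.2 TPM, and the droplet coat gene Plin2, at 47.2 TPM. The most abundant synthesis and glycerol genes were Gpd1, Gpam and Me1, at 92.4, 45.2 and 31.8 TPM. The most abundant other white fat cell genes were Car3, Sncg and Rbp4, at 999, 15.4 and 1.93 TPM. The mean of Car3 describes neither tissue. It averaged 2157 TPM in vehicle TA and 1569 TPM in D + Q-treated TA, but 12.8 TPM in vehicle heart and 9.32 TPM in D + Q-treated heart. Those of brown fat were Cidea, Prdm16 and Dio2, at 6.04, 4.11 and 4.08 TPM. Some other genes of these 2 lists, picked out after their values were seen, were near 0. Adrb3 was at most 0.419 TPM and Acvr1c at most 0.253 TPM. The brown fat gene Ucp1 was at most 0.287 TPM other than 1.27 TPM in vehicle heart replicate 2, the mouse with the most Adipoq.

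By sex in the vehicle mice, limma called 0 of the 42 genes of these 6 lists that were tested, with 7 at an unadjusted p under 0.05, against 7.71% of all genes tested. Of the 13 synthesis and glycerol genes tested 11 were positive, with a median of 0.10 against 0.08 over all genes. Scd1, which makes monounsaturated fatty acids, was 81.5 and 73.0 TPM in the female vehicle TAs and 26.4 and 28.7 TPM in the male ones, with a difference over both tissues of 1.06 (SE 0.24, adjusted p = 0.476). In heart it was 47.5 and 23.0 TPM in the females and 21.1 and 21.0 TPM in the males. Car3, carbonic anhydrase of fat cells and slow fibres, was at 1.01 (SE 0.27, adjusted p = 0.509). The transcription factors had 3 of 7 positive and a median of -0.06, and the droplet and lipolysis genes 5 of 11 positive and a median of -0.12.

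Between the vehicle tissues 22.5% of all genes tested were called higher in TA and 14.2% lower, and the lists held calls in both directions. Of the 7 transcription factors 3 were called higher in TA and 0 lower: Srebf1 at 1.70 (SE 0.19), Cebpb at 1.66 (SE 0.27) and Rxra, the partner of PPARγ, at 1.23 (SE 0.13), opposite to Pparg itself. Of the 11 droplet and lipolysis genes 2 were called higher in TA, Plin2 at 0.76 (SE 0.13) and Fitm1 at 1.52 (SE 0.17), and 4 lower, Plin3 at -1.46 (SE 0.17), Plin5 at -2.54 (SE 0.16), Cidea at -2.55 (SE 0.12) and Mgll at -0.75 (SE 0.14). Of the 13 synthesis and glycerol genes tested 5 were called higher and 3 lower, from Gpd1 at 3.56 (SE 0.17) to Dgat2, which adds the last fatty acid to triglyceride, at -3.17 (SE 0.27). Of the 4 receptors, the adiponectin receptors Adipor1 and Adipor2 were called higher in TA at 0.83 (SE 0.13) and 0.60 (SE 0.14), and the leptin receptor Lepr lower at -1.04 (SE 0.17). Cdh13, the surface anchor of adiponectin, had 78.5 TPM on average over the 15 mice, and Adipoq itself at most 3.29 TPM.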

How the data were processed

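RNA from TA and heart of 15 mice was sequenced as paired-end mRNA libraries. Within an nf-core pipeline, the authors used Trim Galore (version 0.6.10) for trimming and Salmon (version 1.10.3) for quantification on GRCm39, and tximport gave gene-level TPM. The deposited table lists 56980 genes in 15 libraries, genes at 0 included. Each library sums to 1000000 TPM and keeps no read depth, so the precision set by counting is unknown. The annotation release and strand setting are not given in the sources used here. Symbols came from GENCODE M39 and matched 56236 gene IDs.

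TPM was tested on the scale log2(TPM + 0.5) with limma (version 3.58.1, R 4.3.3, trended variance) for genes at 0.5 TPM or more in at least 3 mice of a fit. Fold changes on that scale understate the change of low genes. P-values were adjusted by Benjamini-Hochberg over all genes tested, and a gene was called at an adjusted p under 0.05 and a log2 difference above 0.5 in size. For TA, 1 surrogate variable from own code (5 rounds) entered the model, and for heart labelled sex, the covariates named in the study's methods, with limma in place of a count model because TPM are not counts. Comparisons between tissues and the interaction used 4 groups and labelled sex in all 15 mice. Female and male vehicle mice were compared after the values had been seen. Correlations used exact permutation tests. Nothing in the labels says that the mice of a group came from separate litters or cages. The p-values measure the spread between these mice, and limma estimates that spread in part from all genes tested.

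The 10 genes in full, the 3 most abundant and any called genes of each list, and the 5 genes most like Adipoq in each tissue at a mean of at least 1 TPM were named. The members and lists were chosen with earlier results of these data known. Alternatives covered the pseudocount (0.1 and 1 TPM), the filter, scaling, the variance trend, the minimum size, the covariates, a replicate block and each mouse left out. On simulated data with 200 genes changed by a log2 of 1, the models recovered 78 genes in the TA treatment comparison, 127 in heart, 140 between vehicle tissues and 111 between sexes. False calls numbered 5, 3, 6 and 1 in the same order. Noise was drawn for each gene on its own, without links between genes or the tie of sex to treatment in TA. Recovery in the real mice was therefore not measured. Of the promoter windows searched 3 are printed, and 1 motif and its match are not reported here.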

Additional observations from a re-analysis of the deposited data

Results flagged for a closer look

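In 3 of the 30 combinations of a fat cell gene and a group of 4 mice, the highest mouse stood apart from the other 3 by a gap that, over the range of the group, passed Dixon's 95% critical value. Chance alone gives such a gap in about 1 of 20 groups. Adipoq was 2.437 TPM in D + Q-treated TA replicate 3 and 0.2637 to 0.3829 TPM in the other 3 mice of that group. Plin4 was 56.65 TPM in vehicle heart replicate 3 and 42.75 to 45.08 TPM in the others. Fabp4 was 138.8 TPM in D + Q-treated TA replicate 4 and 123 to 124.6 TPM in the others.

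The mouse high in Adipoq, D + Q-treated TA replicate 3, also had the highest Chad, at 90.1 TPM, and Tnmd, at 30.2 TPM, of its group, while its Cfd was 2.74 TPM and its Retn 0.190 TPM. The part of tendon tissue in its Adipoq value was not tested.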

How the results depend on the processing

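The treatment comparisons called 0 fat cell genes in TA, in heart and in the interaction under every alternative run, each mouse left out included. Between female and male vehicle mice 1 gene was called, Cfd. With a pseudocount of 0.1 TPM 2 were called, the second being Retn, and 2 were called in all 15 mice with sex read from Xist. The count was 0 with the replicate block, where Cfd was 1.82 (adjusted p = 0.0784), 0 in all 15 mice with labelled sex and 0 in the vehicle hearts alone, and it ran from 1 to 2 with each mouse left out. Between D + Q-treated tissues 3 were called, and 1 to 3 with each mouse left out, with 1 left without heart replicate 3. There, 4 were called with sex read from Xist, Retn being gained, and 3 under median-of-ratios scaling, where Plin4 was lost and Lipe gained. Between vehicle tissues 3 were called, and 2 to 3 with each mouse left out. The median r over pairs in TA, 0.277, was 0.393 for deviations from group means, 0.0292 in males alone and 0.136 to 0.446 with each mouse left out. In heart, 0.419 became 0.262 under median-of-ratios scaling, 0.550 for tested members alone and 0.404 to 0.537 with each mouse left out. The cause of these shifts was not tested. No called value reversed. Over all members and comparisons together, called ones included, the sign changed in 84 of 1155 alternatives, each time in an uncalled value.

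Replicate numbers did not pair the mice: deviations of same-numbered mice correlated at -0.30 to 0.04 in TA and at -0.04 to 0.03 in heart. The replicate block gave 0 called members in TA and heart, 3 between vehicle tissues, 2 between D + Q-treated tissues, where Plin4 was 0.26 (adjusted p = 0.312), 0 for the interaction and 0 by sex. Over all genes it called 4 in heart against 51 without the block, and 5 for the interaction against 11. Low levels limit the hormone genes: Lep lay under the filter, and Adipoq, Plin1, Cidec and Retn lay near the 0.5 TPM pseudocount in most males.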
